A study of Rattus norvegicus with 4 samples.

Results

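Connexins are the membrane proteins of gap junctions, and their transcripts were followed in whole rat ovaries cultured with or without anti-Müllerian hormone (AMH), which belongs to the TGF-beta family and comes from granulosa cells. The members are the 12 probe sets, of 31099 in the table, that the platform annotation gives to exactly 1 of 8 genes: Gja1, Gja3, Gja4, Gja5, Gjb1, Gjb2, Gjb6 and Gjc1. Ovaries of female rats of postnatal day 4 were kept on floating filters for 10 days, either with no treatment (control) or with 50 ng/mL AMH. Both groups shared the same medium, which contained albumin, transferrin, insulin and ascorbic acid. Neither strain nor genotype is named in the labels. Each RNA sample was a pool of about 10 whole ovaries, so every value mixes oocytes, granulosa, stromal, vascular and surface cells. There were 2 pools per group, and each was hybridised to 1 Affymetrix array. The series title names the inhibition by AMH of the transition that takes resting follicles into growth as its question, and the comparison made here is AMH against control.

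Connexin subunits form a ring in the membrane of one cell that docks with a ring in the neighbouring cell, and the channel so made passes ions, cyclic nucleotides and other small metabolites. In the ovarian follicle, connexin 43 (Gja1) joins granulosa cells to each other and connexin 37 (Gja4) joins the oocyte to the granulosa cells around it. Mice that lack either protein have follicles that fail to develop normally. Connexin 40 (Gja5) and connexin 37 are also the connexins of arterial endothelium, and connexin 45 (Gjc1) is known from vascular smooth muscle and the conduction system of the heart.

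The deposited values are linear intensities, 1 per probe set and array. A probe set was tested when its mean over the 4 arrays was outside the lowest 40% of the array, which corresponds to an intensity of about 27.8. Changes are differences, AMH minus control, of log2(intensity + 16), given with limma's standard error (SE; 2 arrays in each group). A probe set is called when its Benjamini-Hochberg adjusted p over all 18625 tested probe sets is below 0.05. The arrays' own state differed between the groups. For GAPDH, the brightness of the 3′ control probe set over that of the 5′ one, a measure of RNA and label integrity, was 1.17 and 1.27 in control and 6.56 and 6.37 with AMH. The same ratio for actin was 3.17 and 4.6 in control and 10.7 and 14.4 with AMH. The chip identifiers end in a digit string that the labels do not explain. There were 2 such strings, 0 of them shared by the groups, so whatever the string marks and the treatment cannot be told apart. In pooled whole ovaries, fewer cells of a type and less RNA per cell cannot be told apart either.

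The 5 connexin probe sets that were tested had a higher mean with AMH, by 1.23 to 1.63-fold on the log2(intensity + 16) scale, and 1 of them passed the test. A dimmer probe set of Gja1 went the other way and was left out by the filter, which acts on the mean over all 4 arrays: its control values were above the filter level and its AMH values below it. The shared direction of the 5 therefore depends in part on the filter. Of the 12 connexin probe sets, 5 were bright enough to be tested, for Gja1, Gja4, Gja5, Gjb2 and Gjc1. All 5 had a positive change, with a median of 0.53 against 0.025 over all tested probe sets, and only Gja4 was called (1 of 5). Over all tested probe sets 21.5% were called, 8.67% as higher and 12.8% as lower. In 3 of the 5 (Gja1, Gja4 and Gjc1) both AMH arrays lay above both control arrays. That separation was found for 32.2% of all tested probe sets in the upward direction and for 31.2% in the downward direction, so it is common on these arrays. The 7 connexin probe sets below the filter are described by their values.

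**Figure D1:**
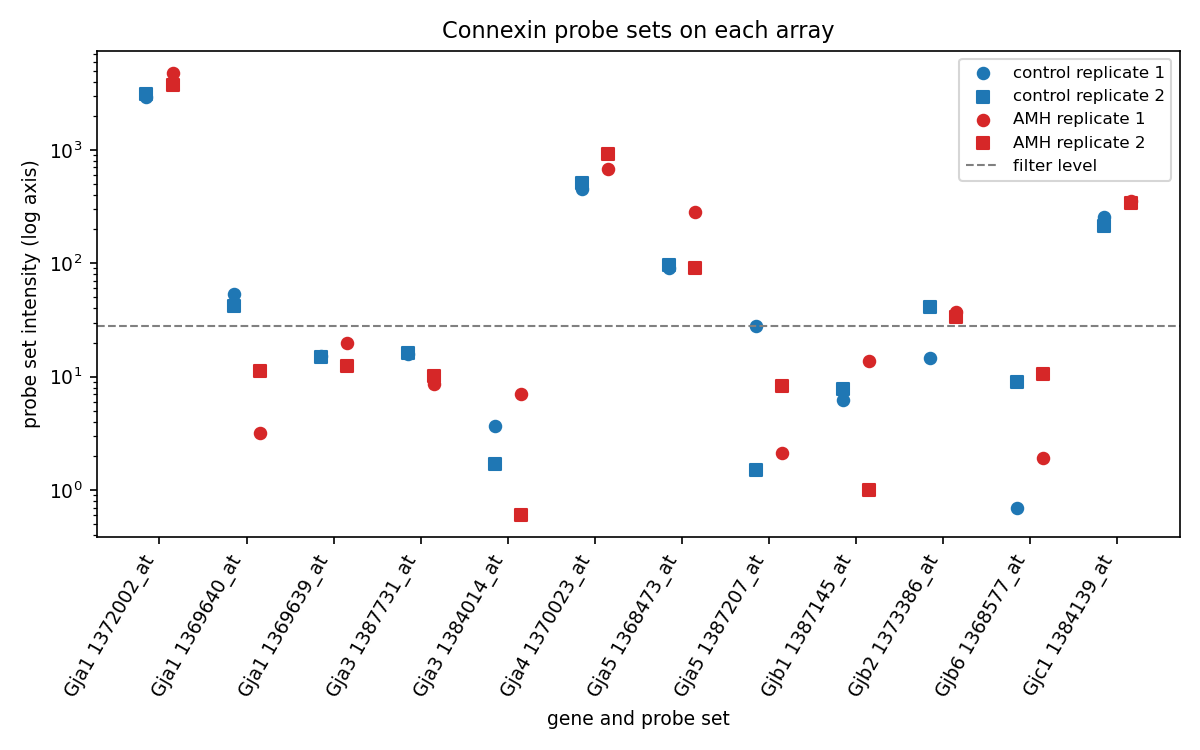
Intensity (log axis) of the 12 connexin probe sets, with a point for each of the 4 arrays (blue control, red AMH; circles replicate 1, squares replicate 2) and the filter level of 27.8 as a dashed line. Both red points lie above both blue points for the brightest probe set of Gja1, for Gja4 and for Gjc1, and most other probe sets lie at or below the line.

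Gja4, which encodes the connexin between oocyte and granulosa cells, was the only tested member called. Differences between members were not tested. Gja4 was measured by 1 probe set (1370023_at), with no other to set beside it. It read 450.8 and 509 in control and 675.8 and 917 with AMH. Both AMH values exceeded both control values, and the gap between the groups was wider than that between the control arrays but narrower than that between the AMH arrays. The mean was 479.9 ± 41.15 in control and 796.4 ± 170.6 with AMH (SD, n = 2 each), a change of 0.70 ± 0.18 (1.62-fold, 95% confidence interval 0.28 to 1.12, adjusted p = 0.0303). Taken with its sign, this change lay above that of 92.5% of all tested probe sets, so falls of any size counted as lower. The call was kept in 9 of 14 other ways of processing the values, with adjusted p between 0.00288 and 0.561. It was lost without control replicate 1 (0.61, adjusted p = 0.194) and without control replicate 2 (0.78, adjusted p = 0.0787), and the change was 0.91 without AMH replicate 1 and 0.48 without AMH replicate 2.

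Of 10 oocyte markers tested, 0 were called higher and 7 were called lower, namely Gdf9, Bmp15, Sohlh1, Sycp3, Ooep, Bcl2l10 and Kit, with a list median of -1.08. Over all genes at their brightest probe set, 11.0% were called higher and 11.9% lower. The 3 markers not called were the zona pellucida genes Zp1 (-0.40 ± 0.33), Zp2 (-0.004 ± 0.173) and Zp3 (-0.002 ± 0.182), whose groups overlapped. The summed intensity of all 10 oocyte markers was 10916.4 and 10214.2 in control and 7548 and 7975.3 with AMH. Because Gja4 is also an endothelial connexin, endothelial markers are given beside it. Of 8 tested, 0 were called in either direction (0 also at an unadjusted p below 0.05), and the list median was 0.07. The sum over all 9 endothelial markers on the array, tested or not, was 1198.7 and 1155.2 in control and 1343.4 and 1359.1 with AMH. The part of either cell type in the change of Gja4 was not tested.

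The sequence before the start of Gja4 is shown because it belongs to the member that was called, and that of Gja1 because it is the other connexin of the follicle. Both are from RefSeq on the rat assembly GRCr8, in which 7 of the 8 genes had an entry (Gjc1 had none). Only bases outside the annotated gene are printed, 5′ to 3′ on the gene's strand, and capitals mark matches to the motifs searched. Gja4 lies on the minus strand (chr5:144920325-144920574, the 250 bases before the start) and Gja1 on the plus strand (chr20:36302314-36302489, bases 250 to 75 before the start).
Gja4: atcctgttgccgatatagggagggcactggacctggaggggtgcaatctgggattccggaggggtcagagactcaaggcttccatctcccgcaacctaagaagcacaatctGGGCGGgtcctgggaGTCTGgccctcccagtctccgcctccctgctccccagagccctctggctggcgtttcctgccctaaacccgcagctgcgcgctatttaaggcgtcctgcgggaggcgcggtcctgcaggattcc
Gja1: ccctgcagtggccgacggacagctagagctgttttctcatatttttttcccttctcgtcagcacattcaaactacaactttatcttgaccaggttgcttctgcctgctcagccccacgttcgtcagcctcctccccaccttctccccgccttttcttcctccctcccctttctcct
The motifs searched on both strands were the TATA box (TATAAA), the CCAAT box (CCAAT), the GC box of SP1 (GGGCGG), the AP-1 site (TGANTCA), the SMAD box (CAGAC), the GC-rich SMAD site (GGCGCC) and the nuclear receptor half-site (AGGTCA). The Gja4 sequence held 1 GC box, whose first base is 139 bases before the start, and 1 SMAD box, read on the other strand, that begins 124 bases before it. Of all 33469 entries of the table, cut to the same 250 bases, 30.5% held a GC box and 42.9% a SMAD box, so neither match is rare. In the Gja1 entry the search found 1 match, an AP-1 site 58 bases before the entry's start, outside the stretch printed here. The annotated Gja1 gene begins ahead of that start, so this site lies inside the annotated gene. An AP-1 site was found in 6.34% of all entries. A match describes the letters and is no evidence of binding, which was not measured.

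Gja1, the connexin of granulosa cells, was measured by 3 probe sets that did not move alike. The brightest (1372002_at) read 2938.8 and 3105.3 in control and 4777.1 and 3724.8 with AMH. Both AMH arrays were above both control arrays, and the AMH arrays stood further apart than the control arrays. Its mean went from 3022 ± 117.7 to 4251 ± 744.1 (SD, n = 2 each), a change of 0.48 ± 0.16 (95% confidence interval 0.12 to 0.84, before adjustment) that was not called (adjusted p = 0.0617). The value is near the threshold and moved across it with the processing. With quantile normalization the change was 0.68 (adjusted p = 0.0276), with median centring 0.61 (0.0353) and with the trend over gene span removed 0.52 (0.0381). Without AMH replicate 2 it was 0.66 (0.00201) and without AMH replicate 1 it was 0.30 (0.0719). With arrays scaled to the hybridization controls it was -0.003 (0.995).

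The other Gja1 probe sets were below the filter. One (1369640_at) read 53.5 and 41.7 in control and 3.2 and 11.2 with AMH, which is the opposite direction to the brightest probe set. Its groups did not overlap and its AMH mean was 0.151 times the control mean. With no filter on dim probe sets its change was -1.47 ± 0.31 (adjusted p = 0.0282), the only connexin called in that fit, in which the adjusted p of Gja4 was 0.0542 and 6.01% of all probe sets were called lower. Both AMH readings lay below the filter level, so the size of this difference depends on the constant added. The last (1369639_at) read 15.2 and 14.9 in control and 19.9 and 12.5 with AMH, with overlapping groups. Where each probe set lies on the transcript was not determined here, and the part of the 3′/5′ difference between the groups in this disagreement was not tested. Granulosa cell markers, given beside Gja1, had 3 of 11 called higher at their brightest probe sets (Amhr2, Inhba and Inhbb), against 11.0% of all genes, and 0 lower. A dimmer probe set of one of them, Wt1, was called lower (-1.10 ± 0.22, adjusted p = 0.0114). The list had sums of 4398.2 and 3691.5 in control and 8132.6 and 5728.4 with AMH. Such sums lean on a few bright genes. Inha read 518.3 and 468.1 in control and 1930.6 and 566.2 with AMH, and was not called (adjusted p = 0.128). Inhbb read 350.7 and 345 in control and 1473.9 and 707.5 with AMH. Whether the proportion of granulosa cells had a part in the Gja1 values was not tested.

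Gjc1, which encodes connexin 45, was measured by 1 probe set (1384139_at). It read 257.4 and 214.2 in control and 353.4 and 338.8 with AMH. The AMH arrays were close to each other and both above the control arrays. The mean went from 235.8 ± 30.55 to 346.1 ± 10.32 (SD, n = 2 each), a change of 0.53 ± 0.17 (95% confidence interval 0.14 to 0.92, before adjustment, adjusted p = 0.0597) that was not called. It passed in 3 of 14 alternatives, with median centring (0.65, adjusted p = 0.0437), with the gene span trend removed (0.55, 0.045) and without AMH replicate 2 (0.56, 0.0497). Markers of smooth muscle and pericytes, cells in which this connexin is known, were called lower in 2 of 7 (Acta2 and Des), against 11.9% of all genes, and higher in 0. At their brightest probe sets, Myh11 (0.61 ± 0.26) and Pdgfrb (0.50 ± 0.23) of the same list were not called. Both had both AMH arrays above both control arrays, as did 32.2% of all tested probe sets. Other Pdgfrb probe sets gave -0.49 ± 0.21 and 0.19 ± 0.28, neither called. A dimmer probe set of Mcam, also of this list, was called lower (-1.15 ± 0.31, adjusted p = 0.0328). The sums over all 8 markers on the array were 655.3 and 692.1 in control and 451 and 619.7 with AMH. The part of these cells in the Gjc1 values was not tested.

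Gja5, the arterial connexin 40, rested on 1 array. Its brighter probe set (1368473_at) read 90.7 and 96 in control and 280.6 and 90.6 with AMH. AMH replicate 1 stood far above the other 3 arrays, while AMH replicate 2 was level with the lower control. The change of 0.70 ± 0.41 (adjusted p = 0.251) had about the size of that of Gja4 with more than 2 times its error and was not called. Without AMH replicate 1 the sign turned (-0.04, adjusted p = 0.92), and without AMH replicate 2 the change was 1.44 (adjusted p = 0.000925), a value judged on the control spread alone. The dimmer probe set (1387207_at) read 27.7 and 1.5 in control and 2.1 and 8.2 with AMH, so it gave no order of the groups.

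Gjb2, which encodes connexin 26, was just above the filter. Its probe set (1373386_at) read 14.5 and 41.3 in control and 36.9 and 33.9 with AMH. The AMH arrays fell between the control arrays, and the change of 0.30 ± 0.34 (95% confidence interval -0.47 to 1.07, adjusted p = 0.563) was not called under any alternative that tested it. Its sign turned without control replicate 1 (-0.16). Gjb1, the connexin of hepatocytes and myelinating Schwann cells (1387145_at), read 6.2 and 7.8 in control and 13.8 and 1 with AMH. Gjb6, known from the cochlea and astrocytes (1368577_at), read 0.7 and 8.9 in control and 1.9 and 10.6 with AMH. Both had overlapping groups at intensities far below the filter level, where no difference was detectable.

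Gja3, a connexin of the lens, had 2 probe sets below the filter. The brighter (1387731_at) read 15.9 and 16.2 in control and 8.6 and 10.2 with AMH, so that its groups did not overlap and AMH was lower. With no filter on dim probe sets its change was -0.34 ± 0.24 (adjusted p = 0.456). The other (1384014_at) read 3.7 and 1.7 in control and 7 and 0.6 with AMH. In all, 2 of the 7 dim connexin probe sets (one of Gja1 and one of Gja3) had groups that did not overlap, both with AMH lower, and 5 overlapped. Of all 12417 probe sets below the filter, 19.3% had AMH lower without overlap and 17.5% had AMH higher. The table holds no detection calls, so it does not say whether these transcripts were present.

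**Figure D2:**
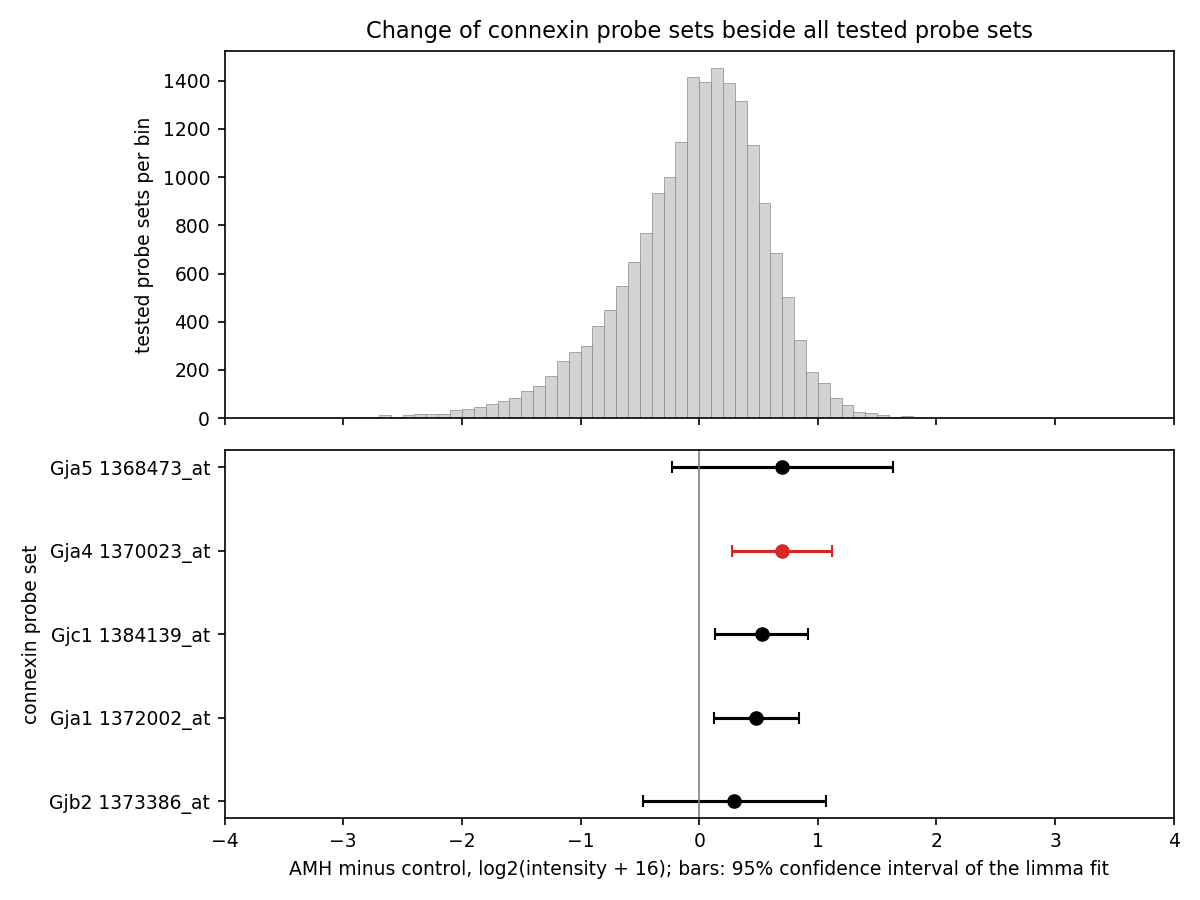
Top: number of tested probe sets by change with AMH (log2, bins of 0.1, end bins pooled). Bottom: the 5 tested connexin probe sets with their 95% confidence intervals before adjustment (red called, black not called). All 5 points lie to the right of 0, and the intervals of Gja5 and Gjb2 cross it.

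The size of the connexin changes, and their calls, moved with the scaling between arrays. The deposited values had been scaled so that the trimmed mean was 125.03 on every array, and 59.6% of all called probe sets were lower. With median centring 46.2% were lower and 3 connexins were called (Gja1, Gja4 and Gjc1). With scaling to the hybridization controls 97.1% were lower, the median change of all tested probe sets was -0.385, and 0 of the 5 connexins were called (0 also at an unadjusted p below 0.05). A scaling that shifts whole arrays moves the connexins and that median together, so values relative to the median are given as a description and do not show that a result withstands the scaling. Gja4 lay 0.67 above that median as deposited, 0.56 with quantile normalization, 0.69 with median centring and 0.61 with hybridization control scaling. For Gja1 these values were 0.45, 0.61, 0.47 and 0.38, and for Gjc1 they were 0.50, 0.44, 0.52 and 0.46.

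**Figure D3:**
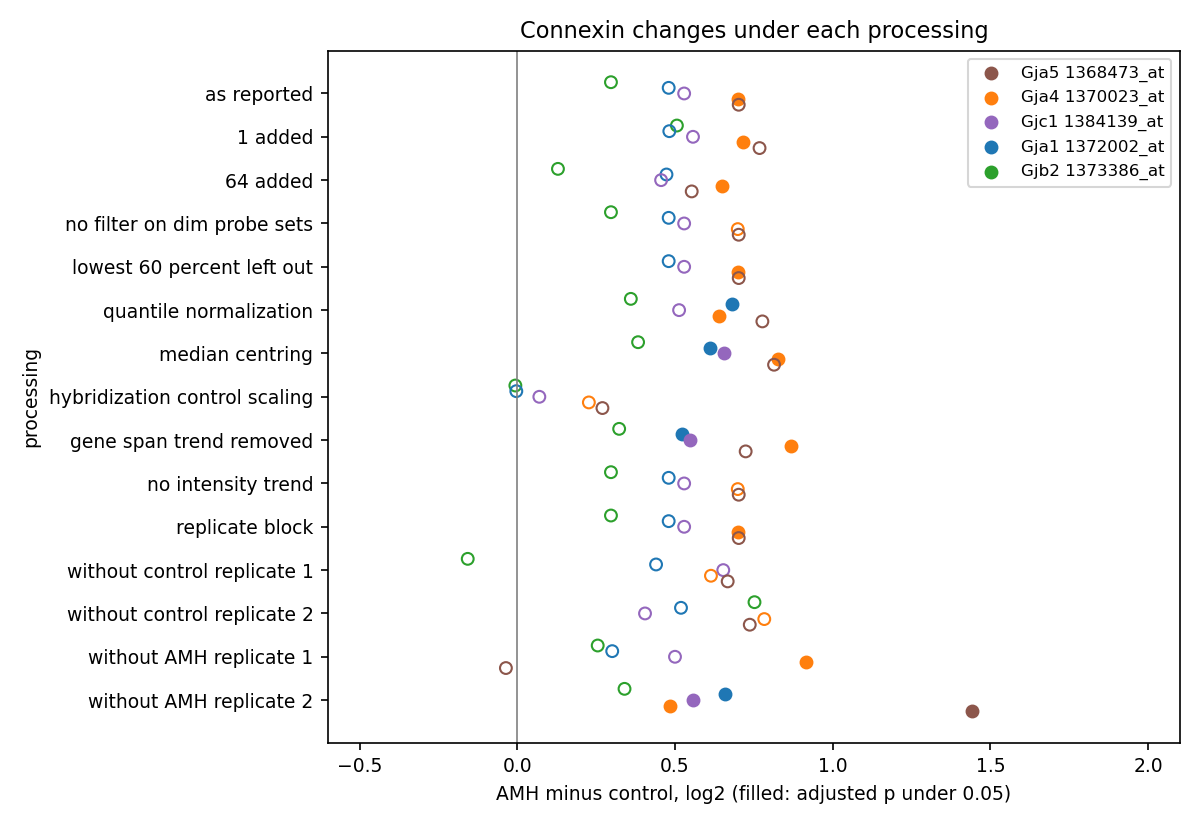
Change with AMH (log2) of the 5 tested connexin probe sets as reported and under 14 alternatives, with filled points where the adjusted p was below 0.05. Gja4 is filled most often, Gja5 lies at -0.04 without AMH replicate 1 and at 1.44 without AMH replicate 2, and scaling to the hybridization controls moves every point toward 0.

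The profiles most like those of the follicle connexins were found by the root mean square difference of log2 values, each centred on its own mean over the 4 arrays. For Gja1 the nearest of 14040 singly named probe sets were those of Rab22a (0.00926), Ripk4 (0.0176) and Klhl12 (0.019). For Gja4 they were Vopp1 (0.00698), Mks1 (0.0204) and Osbpl8 (0.0213). With only 4 arrays close matches are plentiful, as 490 probe sets lay within 0.1 of Gja1 and 181 within 0.1 of Gja4.

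Genes that build, anchor, modify or remove gap junctions were called about as often as all genes. Of 46 such genes tested, each at its brightest probe set, 7 were called higher and 3 lower, and 36 were not called. Of all 10622 genes, 11.0% were called higher and 11.9% lower. The median change of the 46 genes was 0.16, against 0.072 over all genes. Without control replicate 1 only 1 of them was called and without control replicate 2 only 4, and with hybridization control scaling 0 were higher and 9 lower.

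Among other connexins and pannexins, the array named probe sets for Gja6, Gjb5, Gjd2, Panx1 and Panx3. Of these only Panx1, a channel protein related to the innexins of invertebrates, was tested. It read 33.5 and 55.8 in control and 67.6 and 41.2 with AMH and was not called (0.21 ± 0.30, adjusted p = 0.643). Gja6 read 14.8 to 20.2 over all arrays.

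Of 18 tested connexin partners and junction scaffold genes, 2 rose and 2 fell, about the shares of all genes (11.0% higher and 11.9% lower). Ctnna1 (alpha-catenin, which links cadherins to actin) rose from 1906.4 and 1991.3 to 3548.1 and 2846.9 (0.70 ± 0.15, adjusted p = 0.0153). Dbn1 (drebrin, an actin-binding protein that binds connexin 43) went from 256 and 199.9 to 412.5 and 324.2 (0.66 ± 0.20, adjusted p = 0.0469), a rise lost in 7 of 14 alternatives. Cdh1 (E-cadherin) fell from 158.9 and 192.1 to 104.9 and 85.4 (-0.79 ± 0.20, adjusted p = 0.0286). Ctnnd1 (p120-catenin, which holds cadherins at the membrane) fell from 168.6 and 109.9 to 56.3 and 61.9 (-1.02 ± 0.24, adjusted p = 0.0206). In each of these 4 genes the groups did not overlap, as in 32.2% of all tested probe sets upward and 31.2% downward.

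The other scaffold genes named here passed no test at the brightest probe set of each. Tjp1 (ZO-1, which binds the tail of connexin 43) gave 0.06 ± 0.15, and its 4 values ran from 761.4 to 857.4. Ctnnb1 (beta-catenin) gave -0.30 ± 0.14, Cdh2 (N-cadherin, found in granulosa cells) -0.37 ± 0.19 and Ccn3, a secreted protein that binds connexin 43, -0.14 ± 0.19. Dimmer Ctnnb1 probe sets gave 0.39 ± 0.13 (adjusted p = 0.0723) and -0.28 ± 0.20, neither called. Cav1 (caveolin) gave 0.67 ± 0.33 from 1 high array (AMH replicate 2 at 1195.4, the others between 483.9 and 509.6), while a dimmer probe set fell (-1.91 ± 0.39, adjusted p = 0.0122). For Ocln (occludin) the brightest probe set gave 0.12 ± 0.21 and another fell (-1.05 ± 0.25, adjusted p = 0.0203).

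Enzymes that act on connexins were called higher in 4 of 18 and lower in 1 at their brightest probe sets (11.0% and 11.9% of all genes), and for Nedd4, Csnk1a1 and Smurf2 other probe sets gave the opposite call. Nedd4, a ubiquitin ligase that takes connexin 43 from the membrane, rose from 2245.3 and 2402.3 to 4739.7 and 4605.3 (1.00 ± 0.13, adjusted p = 0.00217). Its other 5 tested probe sets disagreed: 2 were called higher (0.50 and 0.65) and 2 lower (-1.12 and -2.45), and 1 was not called (-0.16). The cell cycle kinase gene Cdk1 rose by 0.70 ± 0.15 (adjusted p = 0.0144) and the casein kinase gene Csnk1a1 by 0.69 ± 0.17 (adjusted p = 0.0231), with a dimmer Csnk1a1 probe set called lower (-0.92). The brightest probe set of Csnk1d, another casein kinase gene, gave -0.07 ± 0.17 and was not called, while 3 dimmer ones were called lower (-1.50, -1.42 and -0.85). Smurf2, a ubiquitin ligase, rose at one probe set (0.69 ± 0.20, adjusted p = 0.0448) and fell at another (-0.72, adjusted p = 0.0474). The kinase gene Akt1 fell by 0.53 ± 0.15 (adjusted p = 0.0419), and its dimmer probe set gave -1.61 ± 0.21 (adjusted p = 0.002). The calls of Smurf2 and of Akt1 at their brightest probe sets were each lost in 7 of 14 alternatives.

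Cyclic GMP made in granulosa cells passes through gap junctions into the oocyte. Of 9 tested genes of cyclic nucleotide signalling, 1 was called higher and 0 lower at their brightest probe sets (11.0% and 11.9% of all genes). Gucy1b1, the beta subunit of soluble guanylate cyclase, rose from 267.9 and 307.2 to 553.8 and 520 (0.87 ± 0.16, adjusted p = 0.00846), and its second probe set also rose (0.57 ± 0.16, adjusted p = 0.0389). Gucy1a1, the alpha subunit, gave -0.38 ± 0.14 (adjusted p = 0.0864), with a dimmer probe set called lower (-1.13 ± 0.20, adjusted p = 0.00723). Npr2, the receptor that makes cyclic GMP in granulosa cells, gave -0.03 ± 0.20, and Nppc, its ligand, read 34.5 and 30.4 in control and 65.2 and 33.5 with AMH (0.39 ± 0.30). Neither was called. Pde3a, the oocyte enzyme that breaks down cyclic AMP, was below the filter on all 4 arrays (1 and 15.7 in control, 4.4 and 2.4 with AMH).

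**Figure D4:**
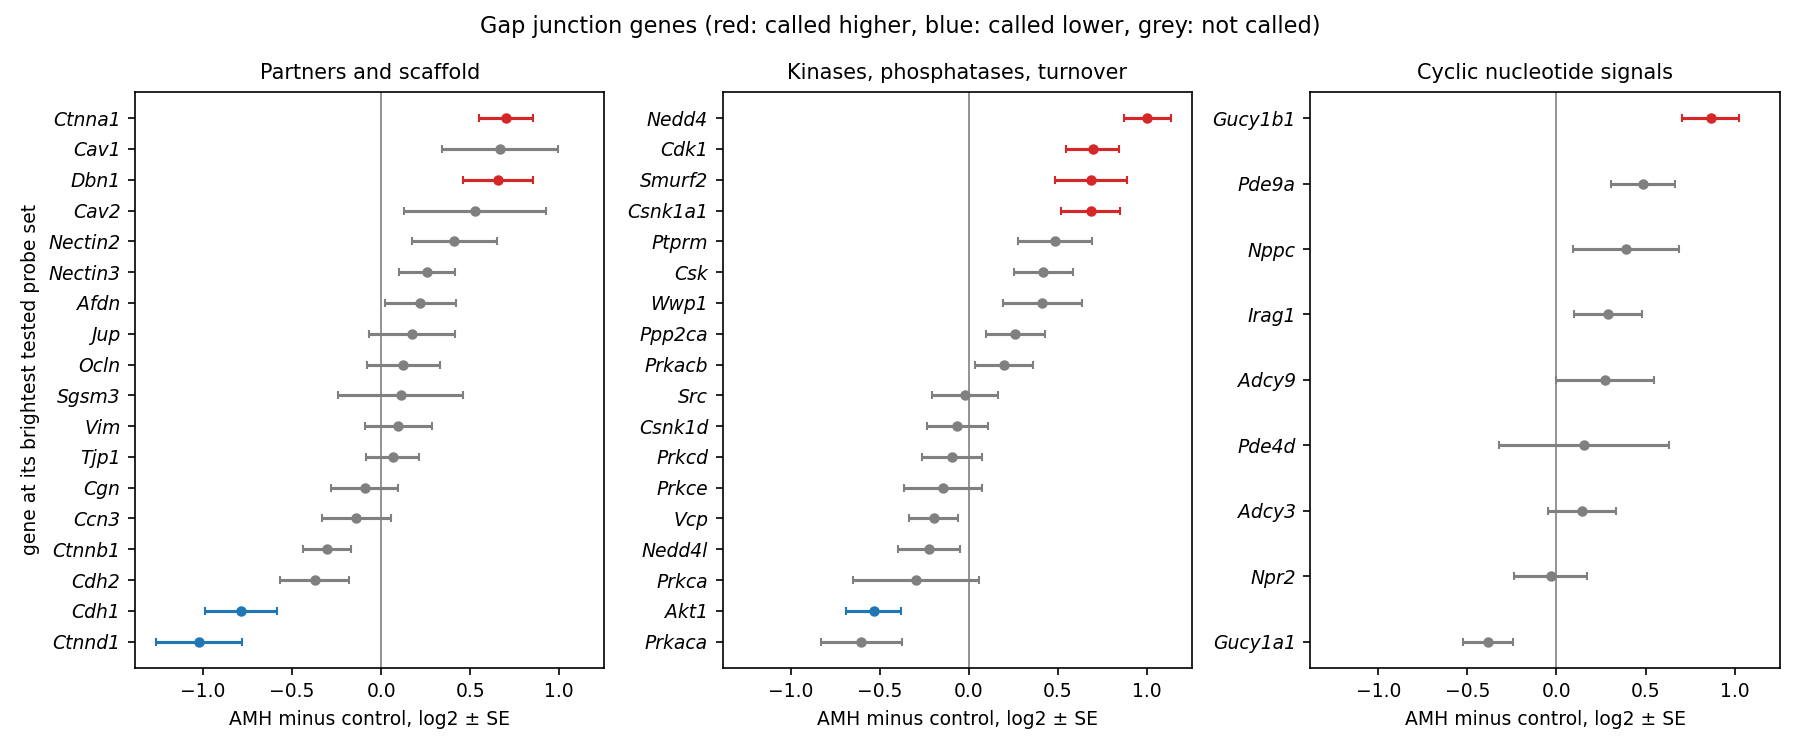
Change with AMH (log2 ± SE) of the tested genes of 3 gap junction lists, each gene at its brightest probe set (red called higher, blue called lower, grey not called). Calls in both directions appear among partners and enzymes, and Gucy1b1 is the 1 called gene of the cyclic nucleotide list.

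The marker lists of the remaining cell types are read against the same shares of all genes (11.0% higher and 11.9% lower). At brightest probe sets, theca and stroma had 1 higher (Pdgfra, 0.67 ± 0.16) and 1 lower (Col1a1, -3.00 ± 0.27) of 9. A dimmer Col1a1 probe set was not called (-0.54 ± 0.23), and a dimmer one of Nr2f2 was called lower (-1.095 ± 0.213, adjusted p = 0.0101). Macrophages had 1 higher (Cd68, 1.04 ± 0.21) of 7 and red blood cells 1 lower (Hbb, -3.88 ± 0.22) of 2. The surface epithelium had 0 of 7 at brightest probe sets (3 at an unadjusted p below 0.05). Dimmer probe sets of 2 of its genes were called lower, Lrrn4 (-1.41 ± 0.18, adjusted p = 0.00194) and Wt1, given above with the granulosa markers.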

How the data were processed

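Whole-ovary RNA of 4 pools (2 control, 2 AMH) was measured on 1-colour Affymetrix arrays. The authors deposited probe set intensity values on a linear scale, 31099 per array; no label read here names the program behind this summary. The pools are described as independent samples in the labels' protocols. The 57 control probe sets and the lowest 40% of the others by mean log2 value were left out. Log2(intensity + 16) values, which understate the change of dim probe sets, were fitted across all 18625 tested probe sets with limma 3.58.1 in R 4.3.3 (lmFit, eBayes with an intensity trend, 2 residual and 6.33 prior degrees of freedom), two-sided, with Benjamini-Hochberg adjustment. Permuting 2 against 2 arrays cannot reach a small p, so p-values rest on this pooled model. No read depth applies to arrays, and their number limits the precision.

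Of the probe sets, 20832 carry 1 symbol, 436 several and 9831 none. The connexins and gene lists were chosen with earlier results of these data known. All connexin probe sets are named. Of the gap junction lists, called genes and a preset group are named, and of the marker lists called genes. Zp1, Zp2, Zp3, Wt1, Inha, Myh11, Pdgfrb, Mcam, Nr2f2, Lrrn4, Csnk1d, Gucy1a1 and Gja6 were named after their values were seen. Alternatives kept the tested probe sets, except the filter and gene span ones. Without a control array the spread comes from the AMH arrays alone, and the reverse.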

Additional observations from a re-analysis of the deposited data

How the results depend on the processing

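The count of connexin probe sets called (1 as reported) was 2 with quantile normalization, 3 with median centring, 3 with the gene span trend removed, 0 with hybridization control scaling (0 at an unadjusted p below 0.05), 0 with no intensity trend in the limma fit (3 unadjusted), and 0 to 4 when an array was left out. With no filter it was 1, but a dim Gja1 probe set in place of Gja4. The sign turned for Gja1 (-0.003) and Gjb2 (-0.006) with hybridization control scaling, for Gja5 without AMH replicate 1 and for Gjb2 without control replicate 1 (leave-one-out ranges -0.036 to 1.44 and -0.157 to 0.752). All probe sets called numbered 3999 as reported and 1381 to 5131 when an array was left out. Of the 46 gap junction genes, 10 were called as reported, 6 with no filter, 5 with no intensity trend and 1 to 13 when an array was left out. A constant of 1 or 64 changed no connexin call. The cause of these shifts was not tested.

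The labels number the replicates in both groups, but same-numbered arrays did not deviate together (correlation of their deviations -0.000816). With the replicate block 3566 probe sets were called and 1 connexin, Gja4 (0.70, adjusted p = 0.0294), and the calls of Akt1 and Smurf2 were lost. Number of arrays and dim signal limit the 7 untested connexin probe sets.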
